A study of Mus musculus with 30 samples.

Results

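Transcripts of the hypoxia-inducible factor (HIF) system were followed in the descending thoracic aorta of mice modelling vascular Ehlers-Danlos syndrome (VEDS) and of their controls, with hydralazine treatment as the main comparison. The 10 genes were taken by symbol from a table of 26253 gene symbols. They were the factor genes *Hif1a* and *Epas1*, the prolyl hydroxylase genes *Egln1* and *Egln3*, and the target genes *Vegfa*, *Adm*, *Bnip3*, *Ndrg1*, *Ankrd37* and *Ddit4*. The set was chosen by what the genes are known to do.

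The 30 RNA-seq libraries came from male C57BL/6J mice. VEDS mice carried a heterozygous missense mutation in *Col3a1*, which encodes the alpha chain of type III collagen, and controls were *Col3a1*+/+. Untreated controls, untreated VEDS mice, hydralazine-treated controls and hydralazine-treated VEDS mice gave 6 libraries each. VEDS mice given hydralazine with bicalutamide (HB), an androgen receptor antagonist, and VEDS mice given hydralazine with spironolactone (HS), a mineralocorticoid receptor antagonist that also binds the androgen receptor, gave 3 libraries each. Hydralazine was given from birth in the drinking water at 32 mg/kg/day. Bicalutamide at 50 mg/kg/day or spironolactone at 100 mg/kg/day was given in chow from day 21. HB and HS aortas were harvested at day 60. The other groups were harvested at day 30 or day 60, and because the age of each of those libraries was not labelled, age and combined treatment cannot be told apart where HB or HS is compared with any of them. RNA was extracted in batches that each held an aorta of every group, but the labels do not say which library came from which of them, and no label tied libraries to litters or days, so that p-values measured the spread between these libraries only.

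HIF is a pair of proteins, an alpha subunit (*Hif1a* or *Epas1*, which encodes HIF-2alpha) and a constant beta subunit (*Arnt*). In well-oxygenated cells the prolyl hydroxylases of the EGLN family mark the alpha subunit, the von Hippel-Lindau ligase binds the mark, and the protein is destroyed. These enzymes need oxygen, iron and 2-oxoglutarate, and hydralazine, a vasodilator used against high blood pressure, can inhibit them. When the mark is missing the alpha subunit persists, enters the nucleus and switches on genes of vessel growth, glycolysis and mitochondrial turnover. Among them are *Egln1* and *Egln3* themselves, so that the transcripts of the hydroxylases rise when the enzymes are held back. The control acts on the alpha protein, and the level of *Hif1a* transcript alone does not report it.

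The core of the DNA element that HIF binds is ACGTG or GCGTG, and the promoter stretches below are shown because this element is how HIF recognises the genes it controls. The 250 bases before each start were searched on both strands in RefSeq promoters of build GRCm38.p6, while the expression files used mm39. A palindrome such as CACGTG counts on both strands. A table entry was matched for 8 of the 10 genes, in 9 windows because *Vegfa* has 2 starts there, and *Epas1* and *Ndrg1* were not matched. Of the 9 windows, 8 held at least 1 match, against 38.595% of 32851 windows in the table. Capitals mark the matched letters, read 5′ to 3′ on the strand of the gene, so that a match on the other strand reads CACGT or CACGC.

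*Bnip3*, chr7:138909581-138909643, minus strand: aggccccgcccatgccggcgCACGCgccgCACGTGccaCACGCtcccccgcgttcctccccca
*Ankrd37*, chr8:45999978-46000025, minus strand: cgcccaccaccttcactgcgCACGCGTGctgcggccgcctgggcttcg
*Egln3*, chr12:54204079-54204123, minus strand: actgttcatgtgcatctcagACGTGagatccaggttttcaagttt
*Egln1*, chr8:124949298-124949342, minus strand: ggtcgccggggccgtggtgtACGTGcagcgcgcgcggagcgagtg
*Hif1a*, chr12:73907712-73907757, plus strand: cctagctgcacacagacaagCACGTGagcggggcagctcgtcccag
*Ddit4*, chr10:59951933-59951977, minus strand: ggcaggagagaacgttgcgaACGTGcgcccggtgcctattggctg
*Adm*, chr7:110627547-110627627, plus strand: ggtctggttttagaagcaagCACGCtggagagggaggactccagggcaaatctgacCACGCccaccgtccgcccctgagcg

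*Bnip3* had the most matches, 5 in its window, and *Ankrd37* had 4. *Hif1a* had 3, *Adm*, *Egln1* and *Ddit4* had 2 each and *Egln3* had 1. The upstream *Vegfa* window had 0 and the window of its internal start had 2. A match is a run of letters and not a shown binding site, and the known elements of several of these genes lie outside windows of this length.

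Library totals were 5517510 to 8293289 expected counts, and 15849 to 16483 genes had a count in each. Summed counts scaled to the library's normalised size (CPM) of 6 smooth muscle markers were 15550 to 29540, those of 6 endothelial markers 660.5 to 1132 and those of 5 fibroblast markers 1695 to 2259, so that the labelled tissue was seen in every library. Markers of tissue around the aorta varied far more. The 6 brown adipocyte markers summed to 87.3 to 1217 CPM, the 6 white adipocyte markers to 135 to 842 CPM with *Lep* at 0 in some libraries, and the 5 hepatocyte markers to 79.2 to 14230 CPM. Summed cardiomyocyte markers were 678 CPM in control hydralazine replicate 5 and 619 CPM in HB replicate 2, against at most 76.7 CPM in the other libraries, with *Myl7* and *Nppa* at 0 in some. HS replicate 3 had the highest heat shock transcripts, with *Hspa1b* at 708 CPM. These 3 libraries stood apart, and each comparison that held one of them was repeated without it. In bulk tissue, fewer cells of a type and less RNA per cell cannot be told apart.

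All 10 genes were detected, and their levels covered a wide range. On the TPM scale, which is corrected for transcript length and allows genes to be ordered, *Hif1a* was highest at 34.2 ± 3.48 TPM (SD, n = 30). It was followed by the mitophagy receptor gene *Bnip3* at 22.4 ± 5.41, *Epas1* at 15.4 ± 2.30, *Ndrg1* at 12.0 ± 2.44, *Vegfa* at 10.9 ± 2.91 and *Egln1* at 10.6 ± 1.82 TPM. *Adm* stood at 5.86 ± 1.64, *Ddit4* at 3.93 ± 1.76, *Egln3* at 1.16 ± 0.393 and *Ankrd37* at 0.736 ± 0.342 TPM. In this order the means of *Ndrg1* and *Vegfa*, and those of *Vegfa* and *Egln1*, differed by less than their SD, and the ranges over the 30 libraries overlapped between every neighbouring pair. All further levels are in normalised CPM, which compares libraries for 1 gene. On that scale *Hif1a* was the steadiest gene, with a coefficient of variation of 7.31% over the 30 libraries, and *Ankrd37* and *Ddit4* were the least steady at 47.8% and 46.6%.

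**Figure D1:**
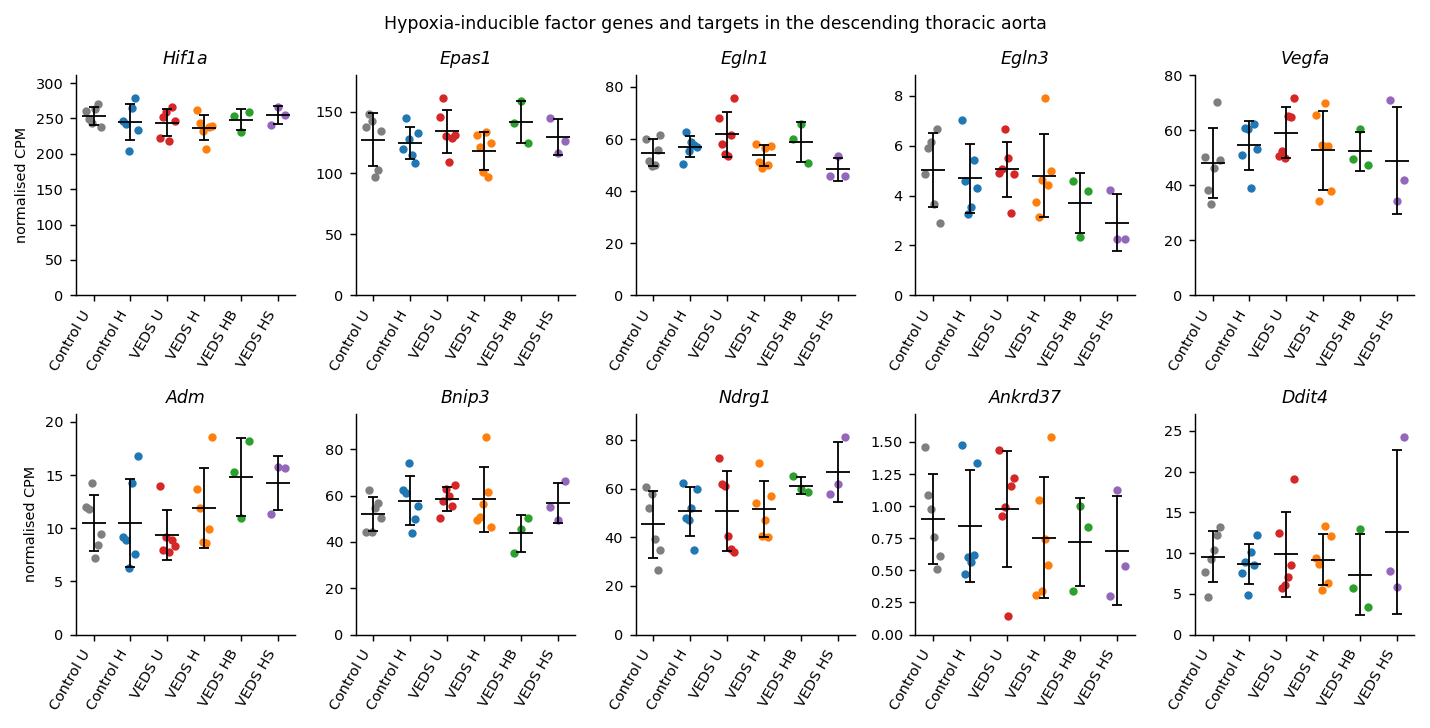
Normalised CPM of each of the 10 genes in the 30 libraries, by group. Each point is 1 library and the bars summarise each group. The untreated and hydralazine-treated groups overlap for every gene, *Adm* is highest on average in HB and HS, and *Ankrd37* lies near 1 CPM throughout.

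No change of the HIF transcripts with hydralazine was detected. Neither factor gene, neither hydroxylase gene and none of the 5 targets that could be tested passed the test in VEDS aortas or in control aortas. In the comparison over both genotypes, 12 libraries against 12 with genotype as a term, the log2 differences ran from -0.11 (*Ddit4*) to 0.18 (*Adm*). Of the 9 genes tested, edgeR's quasi-likelihood test called 0 in VEDS aortas (background 0% of 13006 genes tested), 0 in controls (background 0% of 12951) and 0 over both genotypes (background 0.00746%, 1 of 13407). At an unadjusted p under 0.05 the counts were 1, 0 and 0 of the 9, and DESeq2 also called 0 in each. All genes passed that unadjusted level in 4.53%, 9.50% and 10.8% of tests. *Ankrd37* was left out by the filter on low counts.

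The factor gene *Hif1a* had the narrowest interval of the set. *Hif1a*, the alpha subunit of HIF-1, had a lowest, median and highest level of 238, 255 and 271 CPM in untreated controls and 204, 244 and 279 CPM in hydralazine-treated controls. In VEDS aortas the values were 219, 249 and 266 CPM untreated and 207, 239 and 262 CPM with hydralazine. The groups lay on top of each other. The log2 difference was -0.03 ± 0.07 (SE) in VEDS and -0.05 ± 0.07 in controls, and over both genotypes the 95% interval of the fold was 0.910 to 1.04. *Epas1*, which is prominent in endothelium, had 109, 131 and 161 CPM in untreated VEDS and 96.4, 123 and 134 CPM in hydralazine-treated VEDS aortas. In controls it had 96.9, 136 and 148 CPM untreated and 108.0, 124 and 145 CPM with hydralazine. The hydralazine-treated VEDS median was the lowest of the 4 but the ranges overlapped. Its log2 difference was -0.17 ± 0.10 in VEDS, -0.02 ± 0.11 in controls and -0.10 ± 0.08 over both, with a fold interval of 0.831 to 1.05.

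The prolyl hydroxylase genes, which HIF itself induces, showed no detectable rise with hydralazine. *Egln1*, which encodes the main oxygen sensor PHD2, had 53.6, 59.9 and 75.7 CPM in untreated VEDS and 48.7, 54.0 and 58.1 CPM in hydralazine-treated VEDS aortas. In controls it had 49.5, 53.7 and 61.6 CPM untreated and 50.3, 57.5 and 62.6 CPM with hydralazine. Untreated VEDS aortas thus reached highest, and all groups overlapped. The log2 difference was -0.19 ± 0.08 in VEDS (95% interval -0.37 to -0.01, unadjusted p = 0.0436, adjusted p = 1) and 0.06 ± 0.07 in controls. The difference between the genotypes was -0.26 ± 0.12 (unadjusted p = 0.0357, adjusted p = 1), and it did not pass the test over all genes. *Egln3*, which encodes PHD3 and is the family member most responsive to hypoxia, was scarce, with 3.30, 4.98 and 6.67 CPM in untreated VEDS and 3.14, 4.53 and 7.91 CPM in hydralazine-treated VEDS aortas. Controls had 2.89, 5.39 and 6.69 CPM untreated and 3.24, 4.45 and 7.05 CPM with hydralazine. Its log2 difference was -0.06 ± 0.22 in VEDS and -0.10 ± 0.24 in controls. The interval of the fold over both genotypes, 0.749 to 1.19, stood beside only 18 to 53 counts of this gene in each of these libraries.

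**Figure D2:**
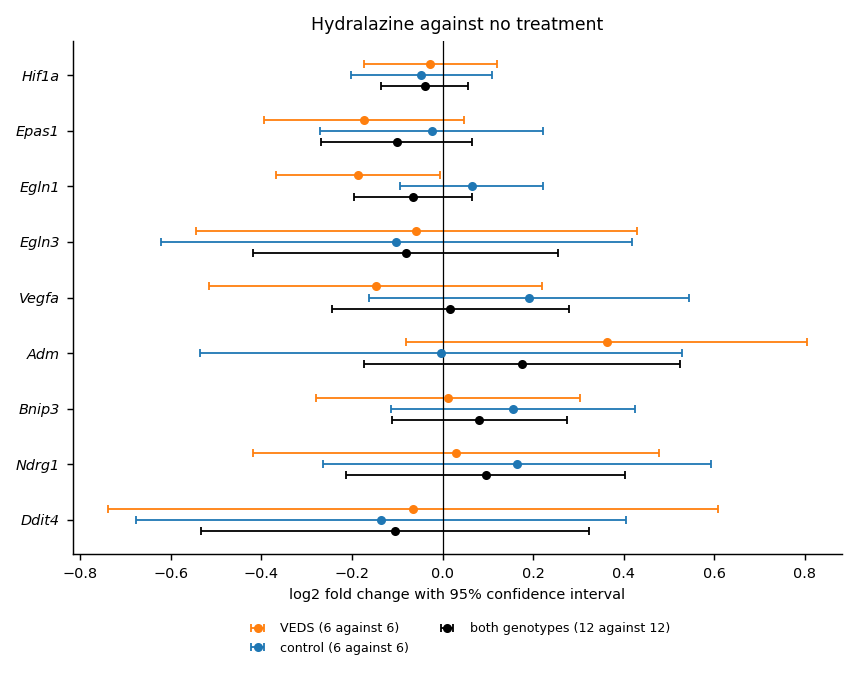
Log2 fold change of each tested gene for hydralazine against no treatment in VEDS, in controls and over both genotypes; points are the fitted values and bars the 95% intervals. Only the *Egln1* interval in VEDS lies to one side of 0, from -0.37 to -0.01, and no gene passed the test after adjustment.

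None of the targets passed the test either. *Vegfa*, the growth factor of endothelial cells, had 50.1, 58.6 and 71.7 CPM in untreated VEDS and 34.4, 54.5 and 70.0 CPM in hydralazine-treated VEDS aortas. In controls it had 33.4, 47.8 and 70.5 CPM untreated and 39.2, 56.8 and 62.2 CPM with hydralazine. The medians moved in opposite directions in the 2 genotypes. The log2 differences were -0.15 ± 0.17 and 0.19 ± 0.16, their difference was -0.35 ± 0.25 (adjusted p = 1), and the fold over both had an interval of 0.845 to 1.21. *Adm*, which encodes the vasodilator peptide adrenomedullin, had 7.77, 8.63 and 13.9 CPM in untreated VEDS and 8.66, 10.9 and 18.5 CPM in hydralazine-treated VEDS aortas. Controls had 7.16, 10.6 and 14.3 CPM untreated and 6.25, 9.02 and 16.8 CPM with hydralazine. Single libraries reached high in every group. The log2 difference of *Adm* was 0.36 ± 0.20 in VEDS (95% interval -0.08 to 0.81), below 0.01 in size in controls with an SE of 0.25, and 0.18 ± 0.17 over both, with a fold interval of 0.887 to 1.44.

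*Bnip3* and *Ndrg1*, a differentiation and stress response gene, differed little with the drug. *Bnip3* had 50.5, 58.8 and 64.6 CPM in untreated VEDS and 46.3, 53.6 and 85.1 CPM in hydralazine-treated VEDS aortas. Controls had 44.2, 52.5 and 62.6 CPM untreated and 44.0, 58.2 and 74.1 CPM with hydralazine. The spread was wider with hydralazine because of 1 high library in each genotype. Its log2 difference was 0.01 ± 0.13 in VEDS and 0.16 ± 0.12 in controls, and the fold over both had an interval of 0.925 to 1.21. *Ndrg1* ranged from 26.4 to 60.8 CPM in untreated controls, 34.6 to 62.1 in treated controls, 33.8 to 72.6 in untreated VEDS and 40.1 to 70.3 in treated VEDS, with medians of 45.8, 50.0, 50.9 and 50.6 CPM. The ranges nearly coincided. Its log2 difference was 0.03 ± 0.21 in VEDS and 0.16 ± 0.20 in controls, with a fold interval of 0.863 to 1.32 over both.

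*Ddit4*, which encodes the mTORC1 inhibitor REDD1 and responds to glucocorticoids and stress as well as to HIF, varied within groups more than between them. Its lowest, median and highest levels were 5.68, 7.82 and 19.1 CPM in untreated VEDS and 5.47, 9.03 and 13.3 CPM in treated VEDS. In controls they were 4.66, 9.81 and 13.2 CPM untreated and 4.81, 8.70 and 12.2 CPM treated. The log2 difference was -0.07 ± 0.31 in VEDS and -0.14 ± 0.25 in controls, and the fold over both had an interval of 0.691 to 1.25. *Ankrd37*, an ankyrin repeat gene that is among the strongest HIF targets in many cells, was near the limit of detection. The 6 libraries of a group summed to 35 counts in untreated controls, 34 in treated controls, 38 in untreated VEDS and 31 in treated VEDS aortas. Its medians were 0.871, 0.611, 1.07 and 0.642 CPM in the same order. Without the filter its log2 difference over both genotypes was -0.22 ± 0.30 (SE, adjusted p = 0.847). A change of the size of this error, or somewhat larger, was not detectable at this depth.

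What the data could miss was expressed for a difference averaged over the genotypes. These fits also pooled day 30 and day 60 aortas, because age was not labelled per library. A rise confined to day 30 or to day 60 was not tested. The joint comparison bounded the rise of *Hif1a* at 1.04-fold and of *Epas1* and *Egln1* at 1.05-fold. It bounded *Egln3* at 1.19-fold, and *Vegfa* and *Bnip3* at 1.21-fold. The upper bounds were 1.25-fold for *Ddit4*, 1.32-fold for *Ndrg1* and 1.44-fold for *Adm*. Within a genotype they reached 1.75-fold for *Adm* and 1.52-fold for *Ddit4* in VEDS, and 1.51-fold for *Ndrg1* and 1.46-fold for *Vegfa* in controls. Lower than in the joint comparison were those of *Epas1*, *Egln1* and *Vegfa* in VEDS (1.03, 0.996 and 1.16). No gene's treated and untreated libraries separated without overlap in either genotype, against a background of 0.199% of genes in VEDS and 0.355% in controls. In the interaction of hydralazine with genotype 0 of 9 were called (background 0% of 13407), and 0 by DESeq2. At an unadjusted p under 0.05 there was 1 (3.28% of all genes). All adjusted p-values over both genotypes lay between 0.706 and 0.978.

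No change was detected in the rest of the pathway under hydralazine. None of the 15 genes of the HIF machinery, 18 glycolytic and metabolic targets, 19 vascular and stress targets and 9 collagen hydroxylases tested over both genotypes was called by edgeR, and 2, 2, 1 and 3 of them had an unadjusted p under 0.05. DESeq2 called 0 genes of any of these lists. The machinery was split, with 7 higher and 8 lower, and its smallest p-values were those of *Egln2*, the gene of PHD1 (log2 difference 0.13 ± 0.06, adjusted p = 0.405), *Cul2* and *Rbx1*, subunits of the von Hippel-Lindau ligase. Of the glycolytic list 5 were higher and 13 lower, with a median of -0.05 against -0.002 over all genes. Its smallest p-values were those of *Pdk1*, the kinase that keeps pyruvate out of the mitochondria (-0.21 ± 0.08, adjusted p = 0.305), *Tpi1* (-0.13 ± 0.05, adjusted p = 0.351) and *Pgk1* (-0.20 ± 0.11).

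Vascular and stress targets were 10 higher and 9 lower, among them the mitochondrial gene *Higd1a* (-0.17 ± 0.07, adjusted p = 0.354) and *Plin2*, a lipid droplet gene (-0.28 ± 0.18). The collagen prolyl and lysyl hydroxylases on the list, apart from *P4hb*, belong to the same family of 2-oxoglutarate enzymes as the EGLN proteins and modify procollagen. All 9 genes of the list had higher point estimates with hydralazine, with a median of 0.13. Those with the smallest p-values were *Plod3* (0.13 ± 0.05, adjusted p = 0.336), *P3h1* (0.25 ± 0.10, adjusted p = 0.359) and *Plod2* (0.13 ± 0.05, adjusted p = 0.369). None passed the test.

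Other programs that control *Ddit4* or *Adm* were listed beside the HIF targets, and 0 genes of any of them were called over both genotypes. Of 10 glucocorticoid-responsive genes 8 were higher, and the smallest p-values were those of *Fkbp5* (0.74 ± 0.32, adjusted p = 0.402), *Pdk4* (-0.29) and *Tsc22d3* (0.23). The integrated stress response had 5 of 7 higher, with *Atf4*, *Sesn2* and *Ddit3* at 0.06, 0.10 and 0.08. The immediate early genes had 6 of 9 higher, led by *Fosb*, *Junb* and *Nr4a1* (0.56, 0.38 and 0.37), and 6 of 6 heat shock genes were higher with a median of 0.21, led by *Hspa8*, *Hspa1a* and *Hspa1b* (0.24, 0.49 and 0.45).

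Within genotypes the glycolytic list leaned in opposite directions. In VEDS 16 of 18 were lower with hydralazine (median -0.17) and in controls 11 of 17 were higher (median 0.10). The brown adipocyte markers leaned the same ways, with 6 of 6 lower in VEDS (median -0.75) and 5 of 6 higher in controls (median 0.28). With an adipose score as a covariate the median of the glycolytic list was -0.06 in VEDS and 0.05 in controls, and in the interaction it went from -0.20 to 0.02. None of its genes was called in any of these fits. The largest of the interaction estimates, that of *Aldoa*, was -0.51 ± 0.14 (unadjusted p = 0.00118, adjusted p = 1).

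**Figure D3:**
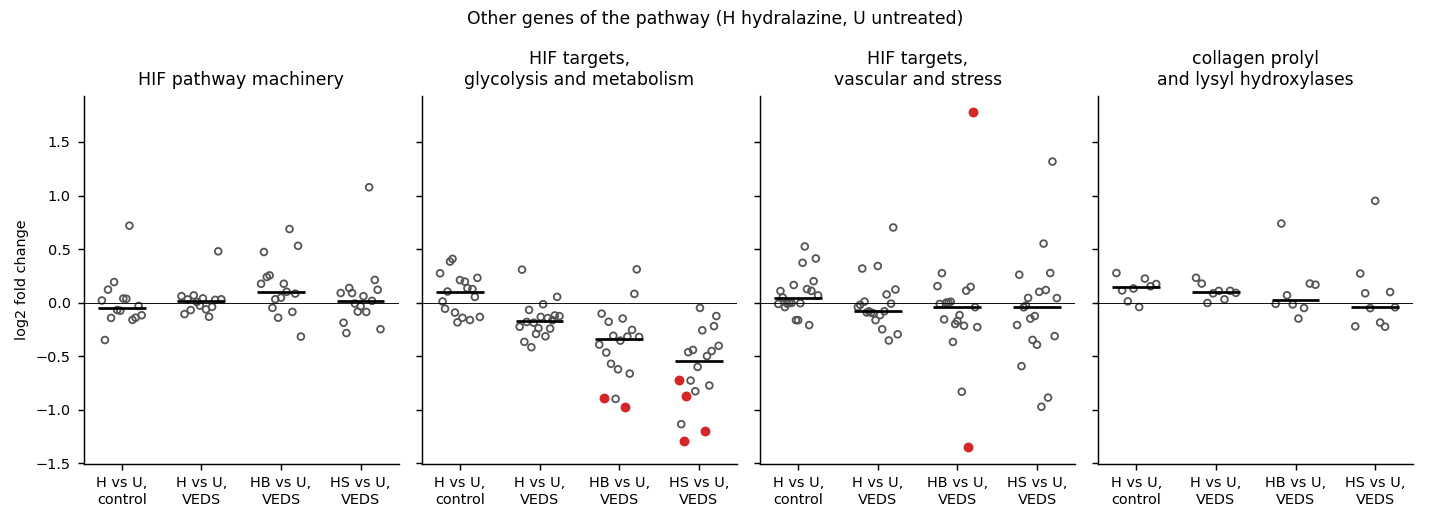
Log2 fold changes of the tested genes of 4 pathway lists (each point a gene, each bar the list's median) for hydralazine against no treatment in controls and VEDS and for HB and HS against untreated VEDS; filled red points passed the test. The glycolytic medians run from 0.10 in hydralazine-treated controls to -0.55 in HS, and the 8 red points are all in HB or HS.

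For hydralazine together with an antagonist, none of the 9 tested genes passed edgeR's test over all genes against untreated VEDS aortas. The fitted folds lay between 0.572 (*Egln3* in HS) and 1.58 (*Adm* in HB). For HB against untreated VEDS the count was 0 of 9 (background 0.409%, 54 of 13204), with 2 at an unadjusted p under 0.05 (16.4% of all genes) and 1 called by DESeq2, *Bnip3*, among 559 genes that DESeq2 called. For HS it was 0 of 9 (background 0.309%, 41 of 13276), with 3 at an unadjusted p under 0.05 (11.1% of all genes) and 0 by DESeq2. Both comparisons share the 6 untreated VEDS libraries. Their groups of 3 give wide intervals.

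*Adm* was 15.3, 11.0 and 18.2 CPM in the HB libraries and 11.3, 15.8 and 15.7 CPM in the HS libraries, against 13.9, 7.99, 9.23, 7.77, 8.91 and 8.35 CPM in untreated VEDS. All 6 treated libraries exceeded 5 of the 6 untreated ones, and untreated replicate 1 lay among them. The log2 difference was 0.66 ± 0.21 for HB (1.58-fold, 95% interval 0.18 to 1.13, adjusted p = 0.170) and 0.59 ± 0.20 for HS (1.51-fold, adjusted p = 0.299). Without untreated replicate 1 the values were 0.81 ± 0.17 (adjusted p = 0.0315, past the threshold) and 0.74 ± 0.15 (adjusted p = 0.0572). Calls over all genes rose as well without that library, from 54 to 529 for HB and from 41 to 104 for HS. With the adipose score as a covariate the *Adm* values were 0.10 ± 0.32 and 0.21 ± 0.21. Against hydralazine alone they were 0.30 ± 0.25 for HB and 0.25 ± 0.24 for HS.

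*Bnip3* was 35.1, 45.4 and 50.5 CPM in HB, the first 2 below and the last level with the lowest untreated VEDS library (50.5 CPM), and 54.9, 49.5 and 66.3 CPM in HS. Only HB was low. The log2 difference was -0.43 ± 0.12 for HB (fold 0.745, adjusted p = 0.123 by edgeR and 0.0449 by DESeq2) and -0.05 ± 0.11 for HS. HS was higher than HB by 0.39 ± 0.16 (unadjusted p = 0.0425, adjusted p = 0.733). With the adipose score as a covariate the HB value was -0.13 ± 0.17.

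The hydroxylase genes were lowest in HS. *Egln1* was 45.8, 53.3 and 45.9 CPM in HS and 59.9, 65.8 and 50.8 CPM in HB. The HS libraries lay just under the lowest untreated VEDS library (53.6 CPM), which made *Egln1* the 1 gene of the set without overlap for HS (background 5.57% of genes), while for HB there were 0 (background 8.46%). The log2 difference for HS was -0.37 ± 0.12 (fold 0.776, adjusted p = 0.287) and stayed at -0.34 ± 0.17 with the adipose score and -0.32 ± 0.14 without HS replicate 3. *Egln3* was 4.22, 2.26 and 2.26 CPM in HS and 4.58, 2.33 and 4.17 CPM in HB. Each group thus held at least 1 library below all untreated VEDS libraries. The log2 difference was -0.80 ± 0.28 for HS (fold 0.572, adjusted p = 0.322) and -0.46 ± 0.27 for HB.

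The remaining genes overlapped with the untreated aortas throughout. *Hif1a* was 253, 232 and 260 CPM in HB and 241, 267 and 255 CPM in HS, and *Epas1* was 141, 159 and 125 CPM in HB and 145, 116 and 126 CPM in HS, all within the untreated VEDS ranges except 1 *Hif1a* value in HS just above it. *Ndrg1* was 65.2, 59.9 and 58.4 CPM in HB and 57.6, 61.7 and 81.0 CPM in HS. *Vegfa* was 49.4, 60.4 and 47.3 CPM in HB and 71.2, 34.2 and 41.8 CPM in HS, a spread nearly as wide as that of all 30 libraries, and its log2 difference turned from -0.18 to 0.21 for HB and from -0.28 to 0.20 for HS with the adipose score. *Ddit4* was 5.77, 13.0 and 3.34 CPM in HB and 7.84, 5.80 and 24.2 CPM in HS. The high values were those of the libraries with heart or heat shock transcripts, and without them the log2 difference went from -0.43 ± 0.49 to -1.12 ± 0.51 for HB and from 0.36 ± 0.50 to -0.52 ± 0.47 for HS. *Ankrd37* summed to 14 counts in HB and 13 in HS.

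**Figure D4:**
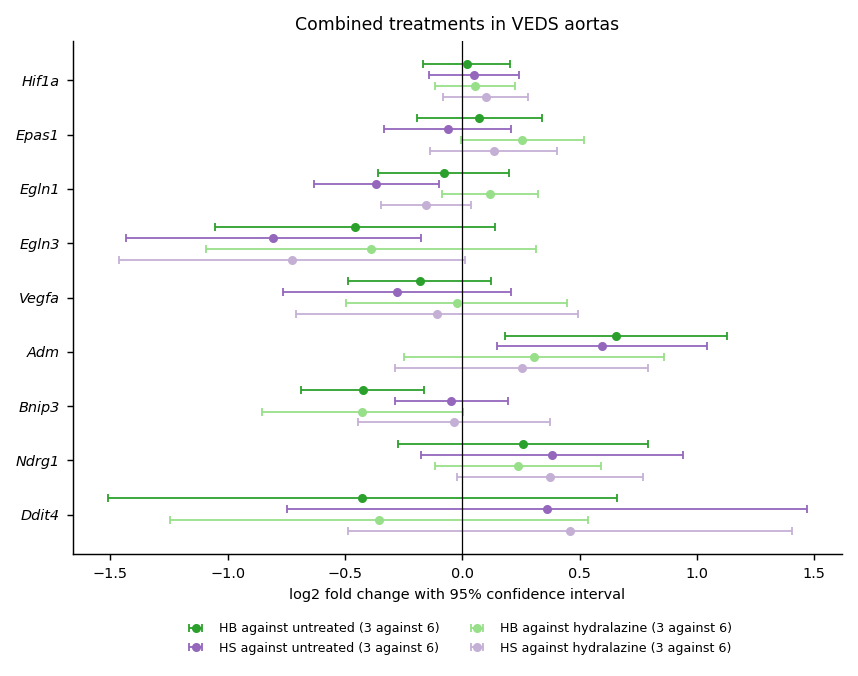
Log2 fold change of each tested gene for HB and HS against untreated and against hydralazine-treated VEDS aortas (3 libraries against 6); bars are 95% intervals. *Adm* lies right of 0 against untreated aortas (0.66 and 0.59), and *Egln3* for HS lies furthest left (-0.80).

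Against hydralazine alone 0 of 9 genes were called for HB (background 0.0151%, 2 of 13266). For HS it was also 0 of 9 (background 0% of 13304). HB and HS aortas were of day 60 and the hydralazine-treated ones of day 30 or day 60. What the antagonist added therefore cannot be told apart from age. By edgeR 0 of the 9 had an unadjusted p under 0.05 in either comparison (15.5% and 13.6% of all genes). DESeq2 called 0 in both and gave 1, *Bnip3* in HB, an unadjusted p under 0.05. The largest differences were -0.43 ± 0.19 for *Bnip3* in HB (adjusted p = 0.328) and -0.73 ± 0.33 for *Egln3* in HS (adjusted p = 0.371). For HS against HB 0 of 9 were called by edgeR and by DESeq2 (background 0% of 12800). By edgeR 1, *Bnip3*, had an unadjusted p under 0.05 (6.68% of all genes).

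Some of the other HIF targets did pass the test against untreated VEDS, and the glycolytic ones fell. In HB 2 of 18 glycolytic genes fell, with 16 of 18 estimates below 0 (median -0.34). *Pfkl*, the liver-type phosphofructokinase, had 70.8, 89.3 and 117 CPM (lowest, median, highest) in untreated VEDS and 43.0, 44.3 and 52.7 CPM in the HB libraries in ascending order, a log2 change of -0.97 ± 0.15 (adjusted p = 0.0375). *Eno1*, an enolase, fell from a median of 378 CPM to 194, 199 and 226 CPM (-0.89 ± 0.14, adjusted p = 0.0389). In HS 4 of 18 fell and all 18 estimates were below 0 (median -0.55). They were *Eno1* (-1.29 ± 0.17, adjusted p = 0.0311), *Pfkl* (-1.20 ± 0.15, adjusted p = 0.0311), *Gapdh* (-0.87 ± 0.13, adjusted p = 0.0409) and *Aldoa* (-0.73 ± 0.11, adjusted p = 0.0409). DESeq2 called 8 in HB and 11 in HS, all lower, among 559 and 288 genes that it called in all. With each library left out in turn, the 6 edgeR calls kept their direction in 9 of 9 fits and stayed past the threshold in 1 (*Aldoa*) to 4 of them.

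In the vascular and stress list *Plin2* fell in HB (-1.35 ± 0.22, adjusted p = 0.0412). *Hspa1a* (2.06 ± 0.16), *Hspa1b* (2.18 ± 0.13), *Atf3* (1.82 ± 0.22) and *Jun* (0.80 ± 0.13), genes of the heat shock and immediate early lists, also rose in HB (adjusted p = 0.000919, 0.000112, 0.0123 and 0.0407). *Hspa1a* and *Hspa1b* stayed called in 9 of 9 fits with 1 library left out, *Atf3* in 6, and *Plin2* and *Jun* in 2. No gene of the 8 pathway lists was called in HB or HS against hydralazine alone. Fat markers moved with these results. The brown adipocyte sum was 366 to 1217 CPM in untreated VEDS, 112 to 338 CPM in HB and 87.3 to 329.9 CPM in HS, without overlap, and 6 of 6 brown markers were lower in each. The white adipocyte sum was 438 to 842 CPM in untreated VEDS, 135 to 406 CPM in HB and 217 to 594 CPM in HS. With the adipose score as a covariate, or without the libraries that stood apart, none of the glycolytic, vascular or immediate early genes above passed the test. The estimates of *Pfkl* were then -0.58 ± 0.20 and -1.07 ± 0.17 for HB and -0.93 and -1.12 for HS.

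No difference in the HIF genes with the *Col3a1* mutation was detected. For VEDS against control 0 of 9 were called in untreated aortas (background 0% of 12976). The count was also 0 of 9 in hydralazine-treated aortas (background 0% of 12966). None was called by DESeq2, and none had an unadjusted p under 0.05 (3.04% and 4.64% of all genes). In untreated aortas 7 of 9 estimates were above 0. The largest was that of *Vegfa* (0.30 ± 0.16), followed by *Egln1* (0.17 ± 0.09), *Ndrg1* (0.17 ± 0.24) and *Bnip3* (0.16 ± 0.10), all with an adjusted p of 1. In hydralazine-treated aortas the estimates ran from -0.09 (*Egln1*) to 0.19 (*Adm*). The brown adipocyte markers were also higher in untreated VEDS, 6 of 6 with a median of 0.68 and a summed level of 366 to 1217 CPM against 87.3 to 760.2 CPM in untreated controls. With the adipose score as a covariate the estimates were -0.02 ± 0.13 for *Vegfa*, 0.07 ± 0.11 for *Egln1*, 0.01 ± 0.10 for *Bnip3* and 0.55 ± 0.24 for *Ndrg1* (adjusted p = 0.965).

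Across the 30 libraries some of the targets varied together or in opposite directions. *Adm* and *Ndrg1* rose together (Pearson r = 0.63, Spearman rho = 0.60, permutation p adjusted over 45 pairs = 0.0108), while *Vegfa* ran against both (r = -0.57 with *Adm*, adjusted permutation p = 0.0196, and r = -0.53 with *Ndrg1*, adjusted permutation p = 0.0372). *Adm* and *Bnip3* also ran in opposite directions (r = -0.54, adjusted permutation p = 0.0306). *Vegfa* with *Bnip3* (r = 0.39, adjusted permutation p = 0.21) and *Bnip3* with *Ndrg1* (r = -0.23, adjusted permutation p = 0.515) did not pass. By Spearman rho the adjusted permutation p was 0.0505 for *Vegfa* with *Ndrg1* and for *Adm* with *Bnip3*. The same 4 targets also varied with the tissue markers of the libraries, fat having been cleaned from the vessel at dissection. Against the summed smooth muscle markers r was 0.72 for *Ndrg1*, 0.67 for *Adm*, -0.69 for *Bnip3* and -0.55 for *Vegfa*, and against the hepatocyte markers -0.62 for *Adm* and -0.61 for *Ndrg1*, with adjusted permutation p-values between 0.0005 and 0.0127. Against the summed brown adipocyte markers r was 0.80 for *Vegfa* (rho 0.76), -0.78 for *Adm* (rho -0.83), -0.65 for *Ndrg1* and 0.57 for *Bnip3*, with permutation p-values of 0.000333, 0.000333, 0.00113 and 0.00742 after adjustment over 100 relations. For *Vegfa* and *Adm* the unadjusted permutation p was 1e-05, the smallest that the permutations can give. With the 2 libraries farthest from the median left out it was 0.73 for *Vegfa* and -0.77 for *Adm*. With group means removed, which takes out all differences between groups, r was 0.88, -0.71, -0.64 and 0.58 for the 4 genes. This does not take out age, because the untreated and hydralazine-treated groups were harvested at day 30 or day 60, with no age label per library. The part of age in these correlations was not tested. For *Hif1a*, *Epas1*, *Egln1*, *Egln3*, *Ankrd37* and *Ddit4* r with the brown adipocyte markers lay between -0.23 and 0.40. The smallest of these adjusted permutation p-values was 0.0903 (*Egln3*). Other markers did vary with some of these genes. *Egln3* had r = -0.51 with the fibroblast markers (adjusted permutation p = 0.0215) and -0.49 with the endothelial markers (adjusted permutation p = 0.0331). *Epas1* had r = 0.46 with the smooth muscle markers (adjusted permutation p = 0.05).

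**Figure D5:**
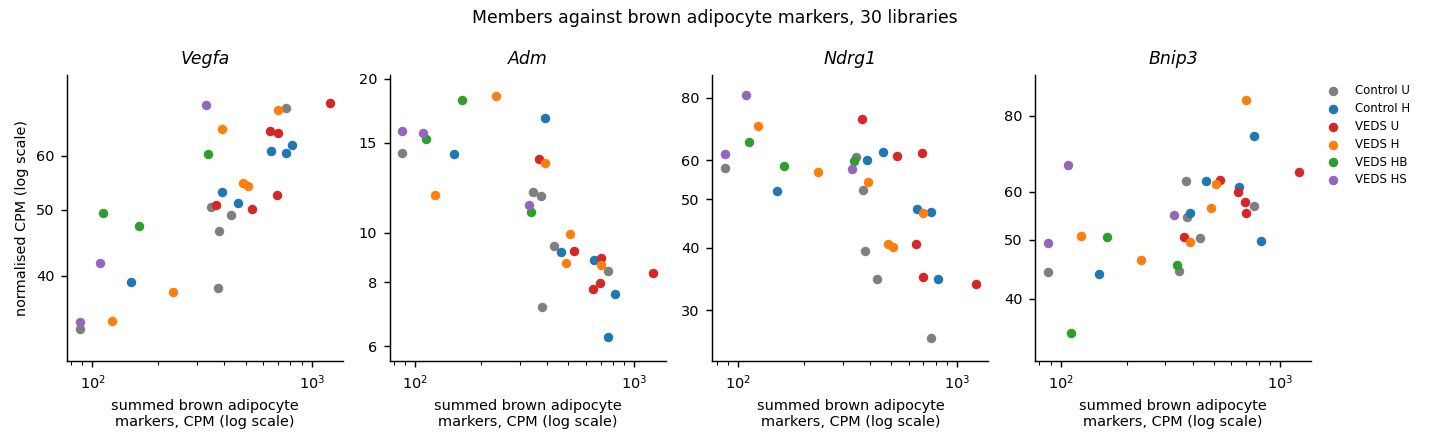
*Vegfa*, *Adm*, *Ndrg1* and *Bnip3* (normalised CPM, log axis) against the summed CPM of 6 brown adipocyte markers (log axis) in the 30 libraries, coloured by group (U untreated, H hydralazine). *Vegfa* and *Bnip3* rise and *Adm* and *Ndrg1* fall with the markers (r = 0.80, 0.57, -0.78 and -0.65).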

How the data were processed

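Bulk RNA-seq of the descending thoracic aorta was analysed in 30 libraries. Per the labels and the study's methods, the adventitia was stripped and fat cleaned from the vessel, stranded total RNA libraries were made, base calls came from CASAVA 1.8.4, and reads were counted per gene with RSEM against mm39. The deposited files hold RSEM expected counts (97.64% whole within 1e-06) and TPM made by the authors. The signal recognition particle RNAs *Rn7s1* and *Rn7s2* take 58.6 to 65.6% of the TPM, so TPM was used only to order genes.

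Expected counts were rounded and tested with edgeR 4.0.16 (R 4.3.3): TMM scaling, filterByExpr with a minimum count of 10, glmQLFit and glmQLFTest (two-sided), and Benjamini-Hochberg adjustment over all genes tested, with calls at an adjusted p of 0.05 or less. Each of 11 comparisons was fitted on its own libraries; the study's own tool, EBSeq, was not used here. Intervals are 95%. Alternatives were DESeq2 1.42.0, DESeq2 size factors (RLE), no filter, a filter of 5 CPM, 1 fit of all libraries, 1 surrogate variable (sva 3.50.0), an adipose score from the 12 adipocyte markers as a covariate, fits without the 3 libraries that stood apart, and fits with 1 library removed at a time. The scripts were tested on simulated data. Correlations used log2(CPM + 1) over 30 libraries and 100000 permutations. Promoter motifs were searched as letters.

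The 10 genes, the 8 pathway lists and the 10 marker lists were chosen with earlier results of these data known. Of the lists, every called gene and, per list, the 3 genes with the smallest p under hydralazine over both genotypes were named, and for each of the 10 genes the 2 genes most like it. Some results for genes outside the set are not reported here. Markers of skeletal muscle (2.76 to 23.0 CPM summed, with *Acta1*, *Mylpf*, *Myh4* and *Tnnt3* at 0 in some libraries), macrophages (123 to 340 CPM) and erythroid cells (130 to 1267 CPM, with *Hbb-bs* at 0 in some) were also summed.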

Additional observations from a re-analysis of the deposited data

Results flagged for a closer look

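*Adm* in untreated VEDS replicate 1 was 13.94 CPM, while the other 5 libraries of the group lay between 7.77 and 9.23 CPM. Its gap to the nearest of them was 0.765 of the group's range, above Dixon's 95% value of 0.625 for 6 samples. It was the only one among 40 groups checked, of which chance would flag about 1 in 20. In the same library the summed brown adipocyte markers were 366 CPM, the lowest of the group. Without it, *Adm* in HB passed the test against untreated VEDS (0.81 ± 0.17 on the log2 scale). That fit called 529 genes in all, against 54 with the library kept.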

How the results depend on the processing

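The 9 tested genes had 1794 refitted values (alternative settings and left-out libraries). Of these, 1759 kept their side of the threshold and either their sign or a value within the SE of the main fit. Another 33 moved, that is, turned sign and differed by more than that SE. The other 2 passed the threshold (*Bnip3* in HB with DESeq2, -0.42 ± 0.13, and *Adm* in HB without untreated VEDS replicate 1). Values that kept their sign could still shift, such as *Adm* in HB from 0.66 to 0.10 with the adipose score. Estimates that passed no test did turn sign in places, such as *Vegfa* in HB and HS with the adipose score. For HB against untreated VEDS the count of the set called was therefore 1 with DESeq2 and 0 to 1 with a library left out. It stayed 0 under every alternative run in the other 10 comparisons. The moved values came mostly from the adipose score (14) and the surrogate variable (11).

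Counts over all genes moved more, and the cause was not tested. DESeq2 called 2 genes for hydralazine in VEDS, 3 in controls, 56 over both genotypes, 559 for HB and 288 for HS against untreated VEDS, 573 and 52 against hydralazine alone, 37 for HS against HB and 4 for VEDS against control under hydralazine. In 1 fit of all libraries the counts were 2 over both genotypes, 141 for HS against untreated, 1 and 2 for HB and HS against hydralazine and 2 for VEDS against control under hydralazine. The surrogate variable gave 2 over both genotypes, 173 for HB against untreated, 69 and 6 for HB and HS against hydralazine and 11 for HS against HB. The adipose score left 3 for HB and 2 for HS. Without the libraries that stood apart 0 remained over both genotypes, 2 for HB, 1 for HS, 1 for HB against hydralazine and 1 for HS against HB. The filter of 5 CPM gave 1 for HB against hydralazine, and no filter gave 2 for VEDS against control under hydralazine. Called genes in HB were higher in 51.9% (67.1% in 1 fit of all libraries), and in HS in 17.1% (30.6% with DESeq2, 42.6% in 1 fit).

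With 1 library left out the counts were 0 to 1 for hydralazine in controls and 0 to 7 over both genotypes (7 and 1 without control hydralazine replicate 1). For HB against untreated VEDS they were 2 to 529, with 529 without untreated replicate 1, 13 to 24 without another untreated library, 2 without HB replicate 1 or 2 and 9 without replicate 3. For HS they were 0 to 104, with 104 without untreated replicate 1, 0 without untreated replicate 2 or 5 or HS replicate 2, and 1 without HS replicate 3. Against hydralazine HB gave 1 to 56 (56 without VEDS hydralazine replicate 4, 36 without replicate 6), and HS against HB 0 to 2 (2 without HS replicate 1).

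No paired analysis was possible because the replicate numbers follow the order of the samples and name no shared animal, litter, day or extraction batch. Depth limits *Ankrd37* (1 to 12 counts a library) and *Egln3* most.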

Other observations

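The genes most like each of the 10, at most 2 for each, over the 30 libraries, among 11134 genes with a mean of at least 5 CPM, were taken by Pearson r. *Vegfa* was closest to *Nrp2* (0.90), a receptor gene of the VEGF family, and *Cpt1b* (0.88), which imports fatty acids into mitochondria. *Adm* was closest to *Ptgs2* (0.89) and *Klf6* (0.82), an inducible prostaglandin synthase and a zinc finger factor. *Ndrg1* was closest to *Cbx7* (0.89) and *Mvp* (0.89), and *Ddit4* to *Glt28d2* (0.80) and *Arrdc3* (0.80). For *Bnip3* the nearest were *Oplah* (0.78) and *Adhfe1* (0.76), for *Epas1* *Aebp1* (0.77) and *Inpp4a* (0.72), and for *Hif1a* *Bmpr1a* (0.75), a receptor of bone morphogenetic proteins, and *Cbx5* (0.73). *Egln1* had *Trp53inp2* (0.69) among its nearest, *Egln3* was closest to *Top1mt* (0.72) and *Enpp2* (0.72), and *Ankrd37* to *Gldn* (0.69) and *Synj2bp* (0.69). None of the 10 genes had another of the set among its 2 nearest. *Egln3* and *Ankrd37*, with means of 4.58 and 0.83 CPM, fell below the limit of 5 CPM and could not appear there. These libraries share composition and groups, so the values describe this set of libraries.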
